A study of Canis lupus familiaris with 23 samples.

Results

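Hair follicles (HF) and interfollicular epidermis (IFE), the stretch of surface epidermis between the follicles, were compared in dog skin by transcript counting. The comparison rests on the 4 libraries labelled as tissue of these origins, 2 of HF and 2 of IFE, out of 23 libraries in 12 groups. The other libraries are 2 of whole skin and organoids grown from follicles or epidermis in several media. The HF group is described by the submitters as follicles of mixed anagen (growing) and telogen (resting) phase, the IFE group as surface epidermis, and neither carries a treatment. The labels give no dog, breed, age or body site, do not say how follicles and epidermis were parted, and do not say whether the replicates of a group came from different dogs. The extraction text, the same for every library, speaks of sorted cells put into Trizol. In the following, HF1, HF2, IFE1 and IFE2 are the replicates as numbered in the labels.

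The epidermis renews itself from a basal layer that rests on the basement membrane through hemidesmosomes and carries the keratin pair KRT5 and KRT14. Cells that leave it change to the suprabasal keratins KRT1 and KRT10, build desmosomes, and end as cornified cells held in an envelope of cross-linked protein and lipid. The follicle is a downgrowth of the same epithelium. Its outer root sheath is continuous with the epidermis, its inner root sheath moulds the growing hair, and its matrix cells give rise to the hair shaft, which is made of hair keratins bound together by keratin-associated proteins (KRTAPs). Around the epithelium lie the dermal papilla and sheath, the sebaceous gland, the arrector muscle, melanocytes and fat.

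The libraries were of unequal depth. HF1 and HF2 held 712593 and 1519680 counts, IFE1 and IFE2 335949 and 86301. Levels are given as CPM, counts per 1000000 of a library size scaled by TMM (trimmed mean of M values), on which 1 count was worth 1.32 and 0.633 CPM in the HF libraries but 2.43 CPM in IFE1 and 7.83 CPM in IFE2. A gene without a count could have stood at up to 4.28 CPM in HF1, 2.00 in HF2, 9.12 in IFE1 and 35.5 in IFE2 (3 counts of the unscaled total, counting error only), so that weakly expressed genes could be seen in HF alone. Of 20448 entries listed, 7677 were above 0 in all 4 libraries, 1693 in both HF libraries and neither IFE library, and 18 in both IFE libraries and neither HF library.

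The IFE replicates differed from each other more than the HF replicates. Over the 2325 genes above 50 CPM on average, the SD of the log2 difference between replicates was 1.00 in IFE against 0.44 in HF and 0.45 in whole skin, and 1.03 to 1.49 between an HF and an IFE library. Transcripts of the hair shaft set IFE1 apart from IFE2. Hair keratins summed to 1742 CPM in IFE1 and 172 CPM in IFE2, against 15297 and 17555 CPM in HF1 and HF2. Transcripts of dermal and glandular cells followed the same order, with fibroblast genes at 5121 CPM in IFE1 and 2246 CPM in IFE2 against 10377 and 6607 CPM in HF. The part that these transcripts play in the differences below was not tested, and values without each IFE library are given where a call turns on them. In bulk tissue, fewer cells of a type and less RNA per cell cannot be told apart.

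**Figure D1:**
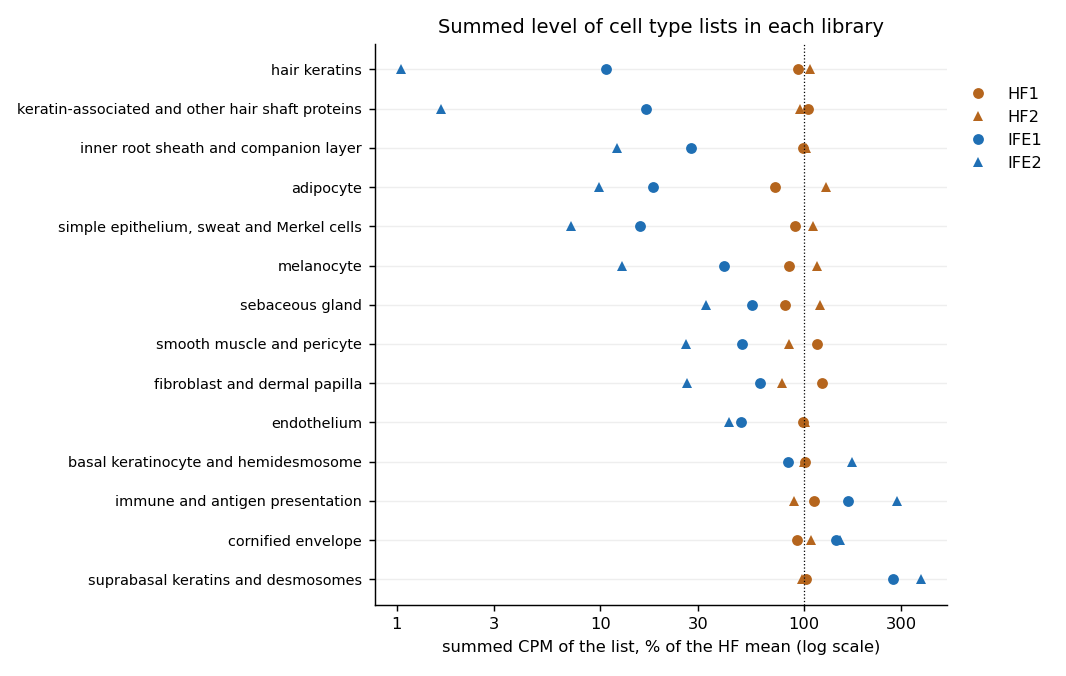
Summed CPM of the listed genes of each cell type in HF1, HF2 (brown) and IFE1, IFE2 (blue), as a percentage of the HF mean on a log axis. Hair keratins stood at 10.6% of the HF mean in IFE1 and 1.05% in IFE2, and suprabasal keratins and desmosomes at 271% and 375%.

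Of 9893 genes tested across all 23 libraries, 275 differed between HF and IFE at an edgeR adjusted p under 0.05, which is 2.78% of the genes tested. Of these, 202 (2.04%) were higher in HF and 73 (0.738%) were lower. At an unadjusted p under 0.05 the test gave 1591 genes. Both HF libraries stood above both IFE libraries in 33.6% of all genes tested, and both IFE libraries above both HF libraries in 15.8%. The groups did not overlap in any of the 275 called genes. The split of the calls depended on the scaling. Scaling by library totals gave 143 genes higher and 142 lower, and moved the median difference of all genes from 0.21 to -0.10 on the log2 scale. DESeq2's size factors gave 166 higher and 87 lower, with a median of 0.06. Without HF1, HF2, IFE1 or IFE2 the calls numbered 148, 112, 147 and 169. A second fit, restricted to the 6 tissue libraries, does not take its estimate of the spread from the organoids. It has 3 residual degrees of freedom, against 11 in the fit to all libraries, and was not repeated with single libraries left out. It called 578 of 6929 genes (8.34%), 326 higher (4.7%) and 252 lower (3.64%), and these included 266 of the 275. Whole skin, which holds both tissues, had a mean between HF and IFE for 172 of the 202 genes higher in HF and 70 of the 73 lower. These genes were selected for a gap between HF and IFE, which favours a mean in between. The counts are therefore a description and no test of the calls.

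**Figure D2:**
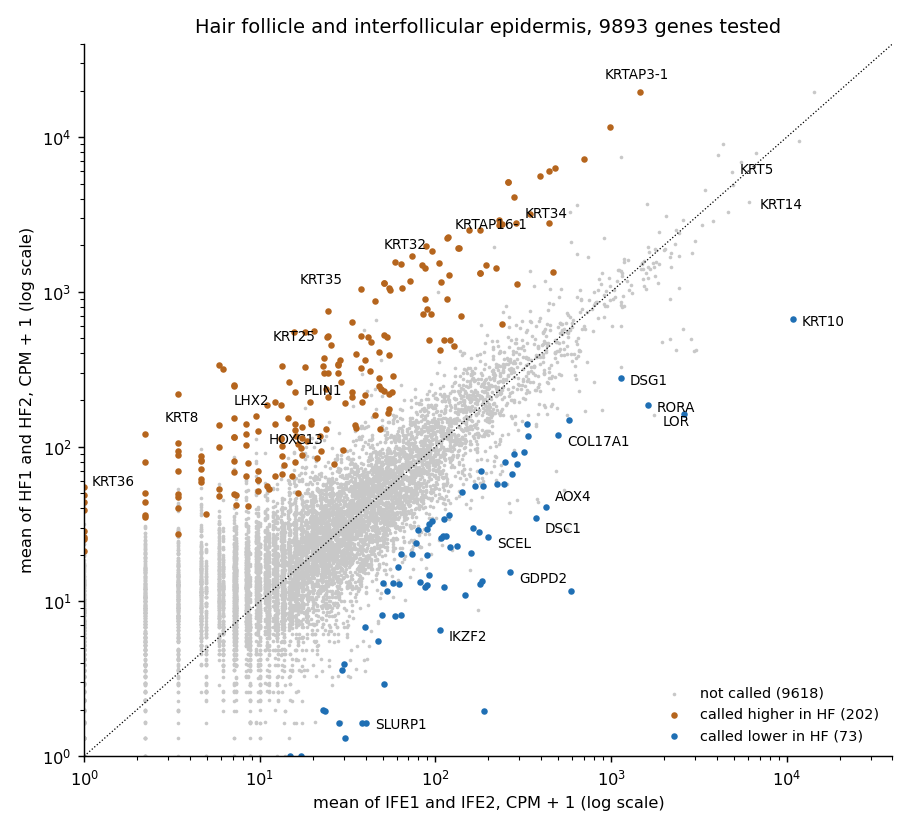
Mean level of each of the 9893 genes tested in HF (vertical) and IFE (horizontal), in CPM + 1 on log axes, with genes called higher in HF in brown and lower in blue. Hair keratins and KRTAPs reach the highest levels on the HF side, KRT10 on the IFE side, while KRT5 and KRT14 lie near the dotted line of equal level.

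The 4 genes used to check the labels followed them. KRT32, a hair cuticle keratin, stood at 1302 and 1811 CPM in HF1 and HF2 and at 99.7 and 15.7 CPM in IFE1 and IFE2 (log2 difference 4.54 ± 0.53, edgeR adjusted p = 0.000169). LHX2, a LIM homeobox factor that marks the stem cell region of the follicle, stood at 229.9 and 142 CPM in HF and at 24.3 CPM in IFE1, with no count in IFE2 (log2 difference 3.42 ± 0.63, edgeR adjusted p = 0.0045). Both follicle genes were higher in each HF library than in either IFE library. KRT10, the acidic suprabasal keratin, read 547 and 788 CPM in HF and 8373 and 13345 CPM in IFE (log2 difference -4.02 ± 0.71, edgeR adjusted p = 0.00216). SCEL (sciellin), a precursor of the cornified envelope, read 22.5 and 27.9 CPM in HF and 241 and 157 CPM in IFE (log2 difference -2.996 ± 0.53, edgeR adjusted p = 0.00203). Neither pair of groups overlapped. KRT10 was not called without HF1 (adjusted p = 0.0611), nor SCEL without IFE1 (adjusted p = 0.0707).

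The keratins as a family were divided between hair and epidermal types. Hair keratins made up 45.2% and 49.4% of all keratin counts in HF1 and HF2, but 8.87% in IFE1 and 0.512% in IFE2. Inner root sheath keratins took 7.17% and 7.08% in HF against 1.73% and 0.0466% in IFE. The suprabasal class, nearly all of it KRT10, took 2.30% and 3.04% in HF and 44.0% and 40.5% in IFE. Basal keratins held 30.6% and 27.5% in HF against 36.3% and 53.6% in IFE, and the class of wound and outer sheath keratins 13.1% and 11.3% against 6.38% and 4.87%. In each of these classes both libraries of a group lay on the same side of both of the other. An exact permutation test of 2 against 2 libraries gives p = 0.333 (two-sided), the smallest it can give, so a share alone cannot pass a threshold here. The basal class overlaps when taken as a share of all counts, at 1.12% and 1.03% in HF and 0.890% and 2.72% in IFE. Whole skin lay between HF and IFE in hair keratins, with 33.3% and 35.1%, in inner root sheath keratins, with 5.471% and 5.496%, and in suprabasal keratins, with 8.48% and 7.71%. Its wound and outer sheath keratins did not lie between, at 14.8% and 12.4%, and its basal keratins, at 36.4% and 37.6%, stood just above IFE1. All keratins together took a share of all counts that ran from 2.45% in IFE1 to 5.08% in IFE2, with 3.65% and 3.73% in HF.

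**Figure D3:**
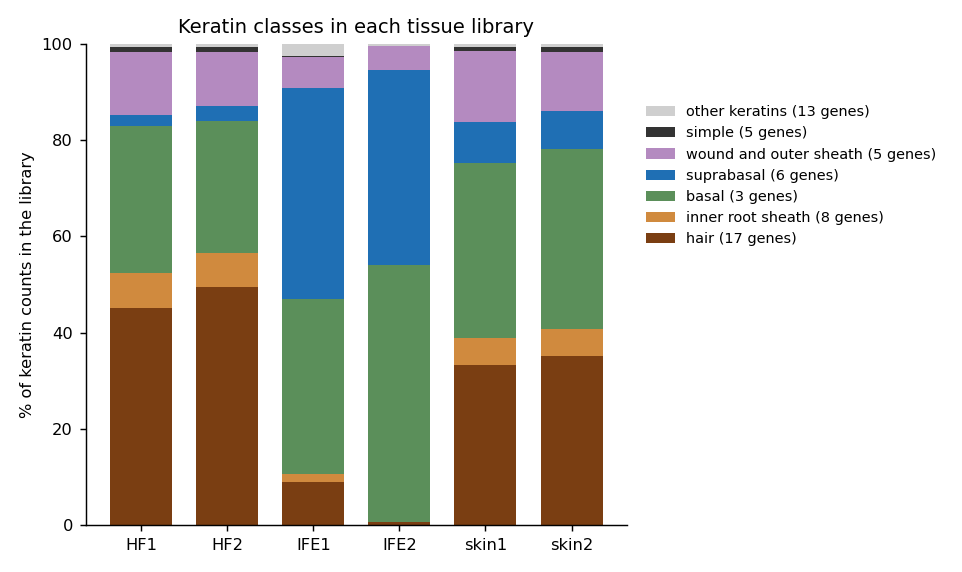
Share of each keratin class in the keratin counts of each tissue library, as stacked percentages. Hair keratins fill 45.2% and 49.4% of the HF bars, 8.87% of IFE1 and 0.512% of IFE2, and suprabasal keratins fill 44.0% and 40.5% of the IFE bars.

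Hair keratins form the filaments of the shaft, in acidic and basic partners. Of the 17 listed, 15 were tested and 14 were called higher in HF, none lower. Their median difference was 4.28 (4.09 with a gene at 0 in both IFE libraries set at its lower bound), against 0.21 (0.14) for all genes tested. The count was 13 or 14 without any 1 of the 4 libraries. Among the acidic hair keratins, KRT31, a cortex keratin, stood at 1927 and 2021 CPM in HF and 168 and 7.83 CPM in IFE (log2 difference 4.28 ± 0.66, edgeR adjusted p = 0.000835), and KRT34 at 2775 and 2779 CPM against 540.1 and 31.3 CPM (log2 difference 3.19 ± 0.66, edgeR adjusted p = 0.0109). KRT35, which appears early in the matrix and cuticle, stood at 1031 and 1047 CPM in HF and at 72.98 CPM in IFE1, with no count in IFE2 (log2 difference 4.48 ± 0.61, edgeR adjusted p = 0.000378). IFE1 held more of all 3 than IFE2, and both HF libraries were nearly level. Of the basic partners, KRT85, an early matrix and cuticle keratin, had 773 and 967 CPM in HF and 72.98 and 15.7 CPM in IFE (log2 difference 4.07 ± 0.54, edgeR adjusted p = 0.000335), KRT86 had 1359.7 and 2028 CPM against 129 and 15.7 CPM (log2 difference 4.35 ± 0.55), and KRT81 had 297 and 360.3 CPM against 17.03 and 7.83 CPM (log2 difference 4.51 ± 0.55). KRT82, a basic keratin of the hair cuticle, had 593 counts in HF and 2 in IFE, a ratio of 68.4 (counting interval 18.9 to 566). KRT36 was absent from the IFE counts and stood at 37.00 and 58.9 CPM in HF, at least 6.61-fold higher than the floor of 7.25 CPM that 3 counts over both IFE libraries give. It was not called without HF2 or IFE1 (adjusted p = 0.0994 to 0.254). Hair keratin genes are close copies of each other, so the division of counts between them is uncertain, while their sum is less so.

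The KRTAPs and other shaft proteins were higher in HF as well. Of 22 genes found in the files, 20 were tested, 13 were called higher in HF and none lower, with 9 to 12 called when 1 library was left out (median difference 3.45, or 3.31 with genes at 0 at their bounds). The 11 KRTAP genes took 5.70% and 4.91% of all counts in HF1 and HF2, 1.04% in IFE1 and 0.111% in IFE2. KRTAP3-1, a high-sulfur protein, was the most abundant symbol in HF outside the mitochondrial and ribosomal genes, with 19346 and 19817 CPM in HF and 2557 and 376 CPM in IFE (log2 difference 3.72 ± 0.74, edgeR adjusted p = 0.00641). Its call was lost without IFE2 (adjusted p = 0.0617). The next, KRTAP8-1, of the glycine and tyrosine rich kind, stood at 12892 and 10222 CPM against 1851 and 117 CPM (log2 difference 3.53 ± 0.72). KRTAP16-1 read 1849 and 2598 CPM in HF and 185 and 46.96 CPM in IFE (log2 difference 4.14 ± 0.50, edgeR adjusted p = 0.000169), and KRTAP26-1 read 908 and 1449 CPM against 109 and 31.3 CPM (log2 difference 3.91 ± 0.51, edgeR adjusted p = 0.000282). In each of these the HF libraries stood far above IFE1, and IFE1 above IFE2. KRTAP7-1 differed between the HF replicates too, at 10858 and 3972 CPM, with 2221 and 54.8 CPM in IFE, and did not pass the test (log2 difference 2.68 ± 0.88, edgeR adjusted p = 0.125). KRTAP11-1 passed (log2 difference 3.32 ± 0.68) but not without HF2 (adjusted p = 0.0503), and KRTAP27-1, with 2 counts in IFE and a ratio of 30.7 (counting interval 8.41 to 255), not without HF2 or IFE1 (adjusted p = 0.0562 to 0.11). KRTAP13-2 had 1 count in IFE, a ratio of 23.3 (counting interval 4.09 to 929), and was not called without HF1, IFE1 or IFE2 (adjusted p = 0.125 to 0.288).

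Other proteins of the keratinising shaft moved with them. S100A3, a calcium-binding protein of the hair cuticle, stood at 1266 and 1695 CPM in HF and 141 and 23.5 CPM in IFE (log2 difference 3.99 ± 0.57, edgeR adjusted p = 0.000571). It was the 1 called of 13 S100 genes tested. PADI3, the peptidylarginine deiminase that converts S100A3 and trichohyalin, had no count in IFE and 30.4 and 44.96 CPM in HF, at least 5.19-fold higher, and was not called without HF2 or IFE1 (adjusted p = 0.0672 to 0.199). GPRC5D, a receptor-like membrane protein of keratinising hair cells, read 1372 and 1196 CPM in HF and 197 and 39.1 CPM in IFE (log2 difference 3.31 ± 0.48, edgeR adjusted p = 0.000538). DSG4, the desmoglein of the hair shaft, had 82 counts in HF and 1 in IFE, a ratio of 18.9 (counting interval 3.30 to 756), with an edgeR adjusted p of 0.0461 that was lost without any 1 of the 4 libraries (adjusted p = 0.139 to 0.314).

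The inner root sheath was also set apart. Of 14 genes tested from the sheath and companion layer list, 7 were called higher in HF and none lower (median 3.04), with 5 to 7 called when 1 library was left out. KRT25, a type I keratin of all sheath layers, stood at 443 and 469 CPM in HF and 48.7 CPM in IFE1, with no count in IFE2 (log2 difference 3.81 ± 0.59, edgeR adjusted p = 0.00102). KRT28, another type I sheath keratin, stood at 330.3 and 332 CPM in HF and 43.8 CPM in IFE1, again with none in IFE2 (log2 difference 3.48 ± 0.57). The sheath cuticle keratin KRT73 read 468 and 281 CPM against 36.5 and 7.83 CPM (log2 difference 3.77 ± 0.56), and KRT74, of the Huxley layer, 268 and 228 CPM against 12.2 CPM in IFE1 and 0 in IFE2 (log2 difference 4.79 ± 0.60). TCHH (trichohyalin), the protein that hardens the sheath and the medulla, had 619.7 and 824 CPM in HF and 163 and 23.5 CPM in IFE (log2 difference 2.78 ± 0.58, edgeR adjusted p = 0.0109). It was not called without HF2 or IFE2 (adjusted p = 0.0711 to 0.077). KRT75, of the companion layer, had 814 and 319.8 CPM in HF, 68.1 and 7.83 CPM in IFE, and an edgeR adjusted p of 0.0879; the fit to tissue alone gave log2 difference 3.43, edgeR adjusted p = 0.0025. KRT71, a further sheath keratin, had 1 count in the 4 libraries and was not tested.

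**Figure D4:**
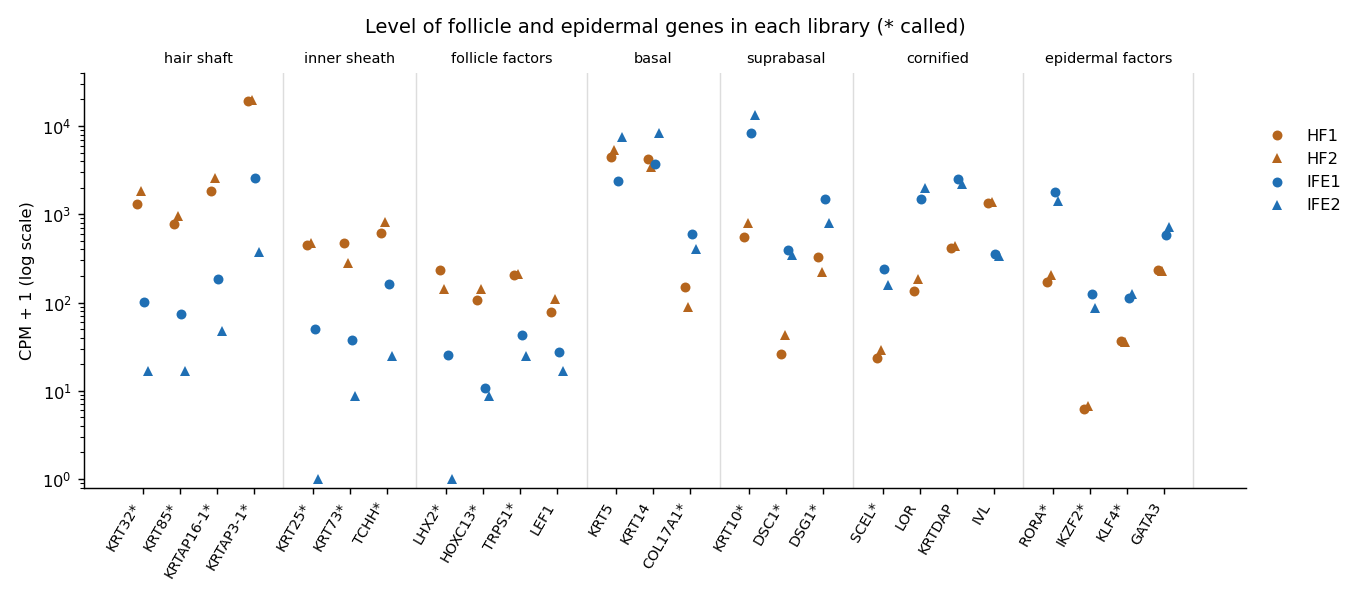
Level of 25 genes in each library, in CPM + 1 on a log axis, with HF in brown, IFE in blue, replicate 1 as circles and replicate 2 as triangles. Asterisks mark genes called by edgeR; the hair shaft and inner sheath genes show IFE1 above IFE2 throughout, while KRT5 and KRT14 overlap between the groups.

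Regulators of the follicle separated less. Of 19 transcription factors of the matrix and follicle tested, HOXC13, LHX2 and TRPS1 were called higher in HF and none was called lower (median 0.94). HOXC13, which acts on hair keratin promoters, stood at 107 and 143 CPM in HF and 9.73 and 7.83 CPM in IFE (log2 difference 3.75 ± 0.59, edgeR adjusted p = 0.000826), the latter from 4 and 1 counts. TRPS1, a repressor needed for follicle formation, stood at 206 and 211 CPM against 41.4 and 23.5 CPM (log2 difference 2.56 ± 0.59, edgeR adjusted p = 0.0191), without overlap, and its call was lost without any 1 of the 4 libraries (adjusted p = 0.0667 to 0.158). LEF1, the Wnt effector of the matrix, read 76.6 and 109.6 CPM in HF and 26.8 and 15.7 CPM in IFE. It did not overlap but missed the threshold (log2 difference 2.002 ± 0.63, edgeR adjusted p = 0.107), and passed in the fit to tissue alone (log2 difference 1.86, edgeR adjusted p = 0.0357). GATA3, an inner sheath factor that is also expressed in epidermis, went the other way with 229.9 and 225 CPM in HF and 584 and 720.1 CPM in IFE (log2 difference -1.51 ± 0.52, edgeR adjusted p = 0.136; tissue alone log2 difference -1.64, edgeR adjusted p = 0.00715). FOXN1 had 20 counts in HF and none in IFE and was too low to be tested. The stem cell factor SOX9 had no count in any of the 4 libraries.

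No gene of the stem cell and outer root sheath list was called, of 23 tested (median 1.33), and 16 of them stood higher in both HF libraries than in both IFE libraries, which is 69.6% against 33.6% of all genes. At an unadjusted p under 0.05 there were 9, and neither DESeq2 nor voom called any, while the fit to tissue alone called 5 of 17 higher in HF. KRT15, a keratin of the bulge and of basal epidermis, read 1695 and 966 CPM in HF and 985 and 2160.3 CPM in IFE, with overlap. CD34, a bulge marker in the mouse and also an endothelial gene, read 48.9 and 40.5 CPM against 21.9 and 7.83 CPM (log2 difference 1.33 ± 0.64, edgeR adjusted p = 0.32). LGR5, a receptor of cycling follicle stem cells, had 10 and 9 counts in HF and 1 count in IFE, a ratio of 4.38 (counting interval 0.697 to 182). The keratins of the outer sheath were higher in HF without passing the test. KRT6A had 2154 and 2333 CPM in HF and 815 and 1002 CPM in IFE (log2 difference 1.31 ± 0.48, edgeR adjusted p = 0.171), KRT17 had 880.0 and 604 CPM against 178 and 305 CPM (log2 difference 1.65 ± 0.63, edgeR adjusted p = 0.184), and KRT16 had 222 and 174 CPM against 68.1 and 62.6 CPM (log2 difference 1.58 ± 0.82, edgeR adjusted p = 0.351). In the fit to tissue alone KRT17 (log2 difference 1.53, edgeR adjusted p = 0.0265) and KRT16 (log2 difference 1.45, edgeR adjusted p = 0.0245) passed and KRT6A did not (log2 difference 1.17, edgeR adjusted p = 0.074). CDH3 (P-cadherin), the adhesion molecule of the matrix, read 157 and 243 CPM against 48.7 and 93.9 CPM, with an edgeR adjusted p of 0.101 in the full fit and 0.0363 in tissue alone.

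Most basal keratinocyte genes were not called. KRT5, the basic basal keratin, stood at 4457 and 5402 CPM in HF1 and HF2 and at 2386 and 7467 CPM in IFE1 and IFE2. Its partner KRT14 stood at 4209.8 and 3398 CPM in HF and 3756 and 8375 CPM in IFE. IFE2 was the highest library for both, and IFE1 overlapped HF or fell below it, so that neither passed the test (log2 difference 0.004, edgeR adjusted p = 1.0, and log2 difference -0.67 ± 0.51, edgeR adjusted p = 0.554). TP63, the master regulator of stratified epithelium, read 51.5 and 41.8 CPM and 87.6 and 39.1 CPM (log2 difference -0.58 ± 0.49, edgeR adjusted p = 0.604). Of 19 basal and hemidesmosome genes tested, 1 was called, lower in HF (median -0.45). Both IFE libraries stood above both HF libraries in 36.8% of them, against 15.8% of all genes, and the reverse held in 2 of the 19, against 33.6% of all genes. That gene was COL17A1, the transmembrane collagen of hemidesmosomes, with 148 and 88.02 CPM in HF and 596 and 399 CPM in IFE (log2 difference -2.10 ± 0.50, edgeR adjusted p = 0.0219). Its call was lost without HF1, HF2 or IFE1 (adjusted p = 0.0656 to 0.262). Its neighbour in the hemidesmosome, the integrin subunit ITGA6, read 169 and 149 CPM against 272 and 399 CPM (log2 difference -1.06 ± 0.40, edgeR adjusted p = 0.184; tissue alone log2 difference -1.18, edgeR adjusted p = 0.0451).

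Among suprabasal keratins and desmosome genes, 4 of 20 tested were called lower in HF and 1, DSG4, higher (median -0.24, or -0.42 with genes at 0 at their bounds). The 4 were KRT10, its partner KRT1, and the desmosomal cadherins DSG1 and DSC1 that replace the basal ones as cells move up. DSC1 stood at 25.1 and 41.8 CPM in HF and 397 and 344 CPM in IFE (log2 difference -3.44 ± 0.71, edgeR adjusted p = 0.00773). DSG1 stood at 328 and 224 CPM in HF and 1479 and 791 CPM in IFE (log2 difference -2.05 ± 0.49, edgeR adjusted p = 0.0219). Both IFE libraries were well above both HF libraries for each. KRT1 had 2 counts in HF and 13 in IFE (ratio of IFE to HF 28.2 (counting interval 6.38 to 257)), against 5147 counts of KRT10 in IFE. Transcripts were counted from their 3′ ends on an annotation that is not given, so counts of different genes may not be comparable. Whether the few counts of KRT1 reflect low expression was not tested. KRT2, the late suprabasal keratin, had no count in the 4 libraries. DSP (desmoplakin), which ties keratin to the desmosome, read 1016 and 1096 CPM against 2187 and 2700.3 CPM (log2 difference -1.21 ± 0.42, edgeR adjusted p = 0.143) and passed in tissue alone (log2 difference -1.35, edgeR adjusted p = 0.039). Leaving out a library left 0 to 3 of the 4 calls. DSC1 was lost without HF1, HF2 or IFE1 (adjusted p = 0.0625 to 0.119), DSG1 without HF1, HF2 or IFE1 (adjusted p = 0.0866 to 0.255) and KRT1 without HF1, HF2 or IFE2 (adjusted p = 0.196 to 0.272).

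The cornified envelope genes went in both directions. In the fit over all libraries, SCEL and TCHH were the only ones called of 21 tested (median -0.76, or -0.91 with a gene at 0 at its bound), while 10 stood higher in both IFE libraries than in both HF libraries, 47.6% against 15.8% of all genes. In the fit to the 6 tissue libraries, 7 of 19 were called lower in HF and 4 higher. In the full fit the spread of a gene is pooled over all groups with replicates, organoids included, and its part in the missing calls was not tested. LOR (loricrin), the main envelope protein, stood at 135 and 184 CPM in HF and 1494 and 2004 CPM in IFE (full fit log2 difference -3.45 ± 1.44, edgeR adjusted p = 0.237; tissue alone log2 difference -3.58, edgeR adjusted p = 8.36e-05). KRTDAP, a secreted differentiation peptide, stood at 408 and 432 CPM in HF and 2523 and 2184 CPM in IFE (full fit log2 difference -2.49 ± 0.73, edgeR adjusted p = 0.0743; tissue alone log2 difference -2.62, edgeR adjusted p = 0.000602). CSTA (cystatin A), a protease inhibitor bound into the envelope, stood at 47.6 and 37.99 CPM in HF and 545 and 219 CPM in IFE (full fit log2 difference -3.21 ± 1.36, edgeR adjusted p = 0.243; tissue alone log2 difference -3.36, edgeR adjusted p = 0.000223). In all 3 the groups were far apart. CALML5, a calcium sensor of differentiating keratinocytes, and DMKN (dermokine) were likewise lower in HF in tissue alone (log2 difference -2.29, edgeR adjusted p = 0.00169, and log2 difference -2.19, edgeR adjusted p = 0.00365), at 646 and 499.6 CPM against 2406 and 2700.3 CPM and at 551 and 392 CPM against 1401 and 2513 CPM.

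Other envelope genes were higher in HF. IVL (involucrin), an early envelope scaffold, stood at 1350.4 and 1382 CPM in HF and 355 and 337 CPM in IFE (full fit log2 difference 1.98 ± 1.11, edgeR adjusted p = 0.395; tissue alone log2 difference 1.85, edgeR adjusted p = 0.00544). CST6 (cystatin E/M), a protease inhibitor of follicle and epidermis, stood at 2182 and 2016 CPM in HF and 778 and 407 CPM in IFE (full fit log2 difference 1.81 ± 0.90, edgeR adjusted p = 0.329; tissue alone log2 difference 1.67, edgeR adjusted p = 0.0239). The groups did not overlap for IVL and CST6. Replicates were close in both groups for IVL, but for CST6 only in HF, with IFE1 above IFE2. FLG (filaggrin), the keratin-aggregating protein of granular cells, read 482 and 711 CPM in HF and 1214 and 798 CPM in IFE and did not pass either fit (adjusted p = 0.773 and 0.168).

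Regulators of keratinocyte differentiation included genes that were lower in HF. Of 19 tested, RORA, IKZF2 and KLF4 were called lower in HF (median -0.42). IKZF2 (Helios), best known as a lymphocyte zinc finger factor, stood at 5.29 and 5.70 CPM in HF and 124 and 86.1 CPM in IFE (log2 difference -4.26 ± 0.63, edgeR adjusted p = 0.000502), and was called in every fit run. RORA, a nuclear receptor of keratinocyte differentiation and of the clock, stood at 168 and 204 CPM in HF and 1807 and 1425 CPM in IFE (log2 difference -3.12 ± 0.72, edgeR adjusted p = 0.0186). KLF4, which is required for the skin barrier, stood at 35.7 and 34.8 CPM in HF and 112 and 125 CPM in IFE (log2 difference -1.73 ± 0.39, edgeR adjusted p = 0.0152). The groups were apart for all 3, and replicates were nearly equal for KLF4. RORA was lost without HF1, HF2 or IFE1 (adjusted p = 0.102 to 0.166) and KLF4 without any 1 of the 4 libraries (adjusted p = 0.0642 to 0.16). RORA was also the 1 called of 17 clock genes tested. ZNF750, another differentiation factor, read 116 and 125 CPM against 212 and 204 CPM (log2 difference -0.78 ± 0.53, edgeR adjusted p = 0.493).

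Serine protease control in the upper epidermis rests on inhibitors of the kallikreins and related enzymes. Of 24 proteases and inhibitors tested, SERPINB7 was called, at 13.2 and 9.50 CPM in HF and 119 and 102 CPM in IFE (log2 difference -3.33 ± 0.62, edgeR adjusted p = 0.00517), though not without HF2 or IFE1 (adjusted p = 0.116 to 0.122). SPINK5 (LEKTI), the main inhibitor of epidermal kallikreins, stood at 494 and 500.3 CPM in HF and 3160.0 and 2513 CPM in IFE (full fit log2 difference -2.51 ± 0.94, edgeR adjusted p = 0.177; tissue alone log2 difference -2.65, edgeR adjusted p = 0.000565). WFDC5, an inhibitor of the whey acidic protein family, stood at 46.2 and 37.99 CPM in HF and 287 and 235 CPM in IFE (full fit log2 difference -2.65 ± 1.40, edgeR adjusted p = 0.361; tissue alone log2 difference -2.79, edgeR adjusted p = 0.000167). In the tissue fit 6 of 18 were lower in HF and 1 higher.

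Of 25 lipid barrier genes tested, CERS4 and FA2H were called higher in HF and none lower (median -0.20). Over all genes tested, 2.04% were called higher and 0.738% lower. In the list, 36.0% of genes stood higher in both HF libraries than in both IFE libraries, against 33.6% of all genes. The reverse held in 28.0%, against 15.8% of all genes. CERS4, a ceramide synthase linked to the sebaceous gland and follicle, stood at 120.2 and 193 CPM in HF and 17.03 CPM in IFE1, with no count in IFE2 (log2 difference 3.67 ± 0.77, edgeR adjusted p = 0.00893). FA2H, the fatty acid 2-hydroxylase of sebum and hair lipids, differed between the HF replicates, at 234 and 1037 CPM, and stood at 41.4 and 23.5 CPM in IFE (log2 difference 4.17 ± 1.07, edgeR adjusted p = 0.0384). CERS3, the ceramide synthase of the cornified layer, and ABCA12, its lipid transporter, were lower in HF in tissue alone (log2 difference -1.70, edgeR adjusted p = 0.00385, and log2 difference -2.04, edgeR adjusted p = 0.00654) but not in the full fit (adjusted p = 0.126 and 0.0604). The same fit called 3 of 21 higher in HF, among them CYP4F22, an enzyme of acylceramide synthesis, and 4 lower. CERS3 read 95.1 and 93.1 CPM in HF and 289 and 266 CPM in IFE. The call for CERS4 was lost without HF2, IFE1 or IFE2 (adjusted p = 0.053 to 0.0713) and that for FA2H without HF2, IFE1 or IFE2 (adjusted p = 0.192 to 0.304). GJB6 (connexin 30), a gap junction protein, was the 1 called of 15 junction and channel genes tested, at 140.1 and 137 CPM in HF and 14.6 and 7.83 CPM in IFE (log2 difference 3.44 ± 0.90, edgeR adjusted p = 0.0408), and was lost without any 1 of the 4 libraries (adjusted p = 0.105 to 0.308).

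Several genes outside the lists were called lower in HF. AOX4, an aldehyde oxidase of skin, stood at 35.7 and 44.3 CPM in HF and 457 and 391 CPM in IFE (log2 difference -3.40 ± 0.40, edgeR adjusted p = 0.000169) and was called in every fit run. GDPD2, a glycerophosphodiester phosphodiesterase, stood at 14.5 and 14.6 CPM in HF and 192 and 337 CPM in IFE (log2 difference -4.13 ± 0.84, edgeR adjusted p = 0.00717). SLURP1, a secreted peptide of cornifying cells, had 2 counts in HF and 21 in IFE, a ratio of IFE to HF of 45.5 (counting interval 11.1 to 401). HAL, chosen after its values were seen, is the histidase that forms urocanic acid in the cornified layer. It read 11.9 and 15.8 CPM against 112 and 70.4 CPM (log2 difference -2.74 ± 0.60, edgeR adjusted p = 0.0152). GDPD2 was lost without HF1, HF2 or IFE2 (adjusted p = 0.0505 to 0.117), SLURP1 without HF1, HF2 or IFE1 (adjusted p = 0.0725 to 0.0978), HAL without HF1, HF2 or IFE1 (adjusted p = 0.132 to 0.324), and C2H5orf46, at 11.9 and 8.23 CPM against 197 and 93.9 CPM, without HF1, HF2 or IFE1 (adjusted p = 0.081 to 0.301). In the other direction APOC1, an apolipoprotein of sebaceous and fat-laden cells, stood at 135 and 354 CPM in HF and 12.2 CPM in IFE1, with no count in IFE2 (log2 difference 4.78 ± 0.74, edgeR adjusted p = 0.00102). HSF4, a heat shock factor, and CNP, an enzyme of myelin, had no count in IFE and were at least 3.80-fold and 2.78-fold higher. Both were lost without any 1 of the 4 libraries. AADACL4, a predicted lipid deacetylase, had 2 counts in IFE and a ratio of 23.8 (counting interval 6.49 to 198), and was lost without IFE1 (adjusted p = 0.0904).

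Signalling genes were described by pathway. BMPs restrain hair growth and drive shaft differentiation. Of 17 BMP genes tested, 5 were called higher in HF and none lower (median 0.99, or 0.79 with a gene at 0 at its bound). BAMBI, a decoy receptor, stood at 81.9 and 78.5 CPM in HF and 12.2 CPM in IFE1, with no count in IFE2 (log2 difference 3.16 ± 0.60, edgeR adjusted p = 0.00596). The ligand BMP4 read 63.4 and 74.7 CPM in HF and 9.73 and 7.83 CPM in IFE (log2 difference 2.90 ± 0.74, edgeR adjusted p = 0.0384), and the ligand BMP7 read 89.9 and 77.9 CPM against 17.03 and 23.5 CPM (log2 difference 2.13 ± 0.57, edgeR adjusted p = 0.0444). Among the targets, ID2 read 169 and 262 CPM against 53.5 and 23.5 CPM (log2 difference 2.33 ± 0.55, edgeR adjusted p = 0.0209). The extracellular inhibitor FSTL1 read 285 and 161 CPM against 87.6 and 23.5 CPM (log2 difference 1.81 ± 0.44, edgeR adjusted p = 0.0245). IFE2 was the lowest library for ID2 and FSTL1, while counts of 5 or fewer in each IFE library do not rank IFE1 and IFE2 for BAMBI or BMP4. With 1 library left out, 1 or 2 of the 5 were called: BMP4 was lost without any 1 of the 4 libraries (adjusted p = 0.0971 to 0.349), BMP7 without any 1 of the 4 libraries (adjusted p = 0.115 to 0.409), ID2 without HF2, IFE1 or IFE2 (adjusted p = 0.106 to 0.17) and FSTL1 without HF1 or IFE2 (adjusted p = 0.153 to 0.223).

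Wnt signals start hair growth. Of 25 Wnt genes tested, only SFRP1 was called, a secreted inhibitor, at 428 and 469.9 CPM in HF and 158 and 93.9 CPM in IFE (log2 difference 1.78 ± 0.45, edgeR adjusted p = 0.0306), and its call was lost without any 1 of the 4 libraries (adjusted p = 0.0962 to 0.183). FRZB, a second secreted inhibitor, read 51.5 and 63.3 CPM in HF and 14.6 CPM in IFE1, with no count in IFE2 (log2 difference 2.44 ± 1.14, edgeR adjusted p = 0.299; tissue alone log2 difference 2.29, edgeR adjusted p = 0.0333). Outside that list, ROR2, a Wnt5a receptor, was called on no count in IFE and 29.1 and 19.6 CPM in HF, at least 3.36-fold higher, and was lost without any 1 of the 4 libraries. In the Hedgehog pathway, which drives matrix growth, 2 of 10 genes tested were called, both lower in HF. SCUBE2, which helps release Hedgehog ligands, stood at 1.32 and 2.53 CPM in HF and 29.2 and 70.4 CPM in IFE (log2 difference -4.36 ± 0.80, edgeR adjusted p = 0.00303), and the co-receptor CDON at 25.1 and 18.4 CPM against 97.3 and 164 CPM (log2 difference -2.55 ± 0.63, edgeR adjusted p = 0.0289). The ligand SHH and the target GLI1 had 9 and 14 counts in HF and none in IFE, too few to be tested. SCUBE2 was lost without HF2 (adjusted p = 0.0509) and CDON without any 1 of the 4 libraries (adjusted p = 0.0869 to 0.262). None of 12 Notch, 20 Tgf-beta, 29 EGF and FGF or 6 ectodysplasin and NF-kB genes was called by edgeR in the full fit, DESeq2 or voom, and 0, 4, 6 and 1 had an unadjusted p under 0.05. The fit to tissue alone called TGFB2, PMEPA1, IGFBP7 and IGF2 higher in HF and NFKBIA lower. In the full fit the nearest to the threshold were PMEPA1, a Tgf-beta target, at 56.8 and 55.1 CPM against 7.30 and 15.7 CPM (log2 difference 2.53 ± 0.82, edgeR adjusted p = 0.114; tissue alone log2 difference 2.42, edgeR adjusted p = 0.0261), and IGFBP7, an insulin-like growth factor binding protein, at 406 and 809 CPM against 180.0 and 180.0 CPM (log2 difference 1.76 ± 0.61, edgeR adjusted p = 0.135; tissue alone log2 difference 1.62, edgeR adjusted p = 0.0308).

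Genes of class II antigen presentation, which Langerhans cells of the epidermis carry, were lower in HF. CD74, the invariant chain of MHC class II, stood at 205 and 91.2 CPM in HF and 547 and 595 CPM in IFE (log2 difference -1.96 ± 0.50, edgeR adjusted p = 0.0408), and DLA-DRA, the dog class II alpha chain, at 19.8 and 22.8 CPM against 153 and 86.1 CPM (log2 difference -2.54 ± 0.47, edgeR adjusted p = 0.00517). These were the 2 called of 16 immune genes tested, both lower in HF (median -1.17, or -1.40 with genes at 0 at their bounds). HLA-DRB1, the name the files give to a class II beta chain, followed at 103 and 78.5 CPM against 409 and 227 CPM (log2 difference -1.85 ± 0.44, edgeR adjusted p = 0.0259). The T cell genes CD3D, CD3E and CD3G had at most 3 counts in any of the 4 libraries, and CD207, the langerin gene, is not analysed here. CD74 was lost without HF2, IFE1 or IFE2 (adjusted p = 0.139 to 0.334), DLA-DRA without HF1, HF2 or IFE1 (adjusted p = 0.0615 to 0.224) and HLA-DRB1 without HF1, HF2 or IFE1 (adjusted p = 0.105 to 0.343). CCL27, the keratinocyte chemokine that draws T cells to skin, was the 1 called of 15 cytokine and alarmin genes tested, at 9.25 and 5.07 CPM in HF and 77.8 and 46.96 CPM in IFE (log2 difference -3.27 ± 0.62, edgeR adjusted p = 0.00434), lost without HF2 or IFE1 (adjusted p = 0.117 to 0.22). The epidermal interleukin-1 family members IL36B and IL36RN, an agonist and its antagonist, were lower in HF in tissue alone (log2 difference -4.55, edgeR adjusted p = 3.61e-05, and log2 difference -2.90, edgeR adjusted p = 0.00119) but not in the full fit (adjusted p = 0.118 and 0.136). IL36RN stood at 59.5 and 77.3 CPM in HF and 260.3 and 712 CPM in IFE. IL1R2, the decoy receptor of interleukin 1, stood at 9.25 and 14.6 CPM in HF and 234 and 125 CPM in IFE (log2 difference -3.90 ± 0.80, edgeR adjusted p = 0.00773), and IL18R1 had 1 count in HF and 11 in IFE, a ratio of IFE to HF of 47.7 (counting interval 6.93 to 2053). IL1R2 was lost without HF1, HF2 or IFE1 (adjusted p = 0.0989 to 0.186) and IL18R1 without HF1, HF2 or IFE2 (adjusted p = 0.146 to 0.178). Of 13 interferon response genes tested, IRF1 was called on 2 counts in HF and 9 in IFE (ratio of IFE to HF 19.5 (counting interval 4.04 to 186)) and was lost without HF1, HF2 or IFE2 (adjusted p = 0.13 to 0.293).

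Markers of some cell types around the follicle were higher in HF. Of 10 adipocyte genes tested, PLIN1, PLIN4, ADIPOQ and CIDEC were called higher and none lower (median 2.89, or 2.67 with genes at 0 at their bounds). PLIN1 (perilipin), a coat protein of fat droplets, stood at 192 and 258 CPM in HF and 21.9 and 7.83 CPM in IFE (log2 difference 3.67 ± 0.52, edgeR adjusted p = 0.00036), and the hormone ADIPOQ at 148 and 237 CPM in HF, 36.5 CPM in IFE1 and 0 in IFE2 (log2 difference 2.94 ± 0.63, edgeR adjusted p = 0.0118). The summed list reached 18.2% of its HF mean in IFE1 and 9.87% in IFE2. Of 22 sebaceous gland genes tested, 5 were called higher and 1 lower (median 2.14, or 1.63 with genes at 0 at their bounds). Over all genes tested, 2.04% were called higher and 0.738% lower. Both HF libraries stood above both IFE libraries in 72.7% of the sebaceous genes, against 33.6% of all genes. The reverse held in 4.55%, against 15.8% of all genes. SCD, the stearoyl-CoA desaturase, stood at 848 and 1409 CPM in HF and 440.3 and 141 CPM in IFE (log2 difference 1.91 ± 0.47, edgeR adjusted p = 0.0275), and ELOVL3, an elongase of sebum lipids, at 66.1 and 213 CPM in HF, 14.6 CPM in IFE1 and 0 in IFE2 (log2 difference 3.73 ± 0.83, edgeR adjusted p = 0.0176). ACSL1, a fatty acid CoA ligase, was lower in HF at 38.3 and 27.9 CPM against 151 and 70.4 CPM (log2 difference -1.85 ± 0.38, edgeR adjusted p = 0.00773). ADIPOQ was lost without HF2 or IFE2 (adjusted p = 0.0727 to 0.103), SCD without HF2 or IFE2 (adjusted p = 0.196 to 0.235), ELOVL3 without HF2, IFE1 or IFE2 (adjusted p = 0.111 to 0.196) and ACSL1 without HF2 or IFE1 (adjusted p = 0.16 to 0.399).

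Of 28 fibroblast and dermal papilla genes tested, 5 were called higher in HF, and 0 to 3 with 1 library left out (median 1.28). Over all genes tested, 2.04% were called higher. Both HF libraries stood above both IFE libraries in 64.3% of the fibroblast genes, against 33.6% of all genes. The reverse held in 7.14%, against 15.8% of all genes. COL1A1, the main dermal collagen, stood at 1702 and 1132 CPM in HF and 369.8 and 70.4 CPM in IFE (log2 difference 2.60 ± 0.63, edgeR adjusted p = 0.0259). COL6A1 stood at 166 and 98.2 CPM against 17.03 and 15.7 CPM (log2 difference 2.97 ± 0.63, edgeR adjusted p = 0.0105). The HF replicates differed here, with HF1 above HF2, and IFE2 had less COL1A1 than IFE1. COL1A1 was lost without HF1, HF2 or IFE2 (adjusted p = 0.0566 to 0.183) and COL6A1 without HF1, IFE1 or IFE2 (adjusted p = 0.0667 to 0.208). Smooth muscle, which includes the arrector muscle, gave no edgeR call among 13 genes, with 9 at an unadjusted p under 0.05. DESeq2 and voom called 2 each, and the fit to tissue alone called 4. In both HF libraries 12 of the 13 stood higher than in both IFE libraries, which is 92.3% against 33.6% of all genes. MYH11, a smooth muscle myosin, read 411 and 388 CPM in HF and 163 and 125 CPM in IFE (log2 difference 1.44 ± 0.40, edgeR adjusted p = 0.0619; tissue alone log2 difference 1.31, edgeR adjusted p = 0.0333). Among 11 endothelial genes none was called by edgeR, DESeq2 or voom (3 at an unadjusted p under 0.05), nor among 5 Schwann cell and 2 muscle genes (0 at that p). Of the 11 endothelial genes, 8 stood higher in both HF libraries than in both IFE libraries, which is 72.7% against 33.6% of all genes. None of the 11 stood higher in both IFE libraries, and their median difference was 1.37. Of 21 basement membrane genes NID1 (nidogen), a linker of laminin and collagen, was called, at 114 and 113 CPM in HF and 17.03 and 15.7 CPM in IFE (log2 difference 2.76 ± 0.75, edgeR adjusted p = 0.0489), and was lost without any 1 of the 4 libraries (adjusted p = 0.138 to 0.373). PMEL, the melanosome fibril protein, was the 1 called of 11 melanocyte genes tested. It had 295 counts in HF and 1 in IFE, a ratio of 68.05 (counting interval 12.1 to 2697), and was lost without IFE1 or IFE2 (adjusted p = 0.0562 to 0.189). TYRP1, an enzyme of melanin synthesis, read 457 and 861 CPM in HF and 90.0 CPM in IFE1, with no count in IFE2 (log2 difference 3.54 ± 1.02, edgeR adjusted p = 0.0736; tissue alone log2 difference 3.36, edgeR adjusted p = 0.00291). KRT8, a keratin of simple epithelium such as gland ducts and Merkel cells, stood at 135 and 139 CPM in HF and 9.73 CPM in IFE1, with none in IFE2 (log2 difference 4.24 ± 0.63, edgeR adjusted p = 0.000502). KRT7, of the same class, was called as well (log2 difference 2.61 ± 0.67) but was lost without any 1 of the 4 libraries (adjusted p = 0.0672 to 0.195).

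**Figure D5:**
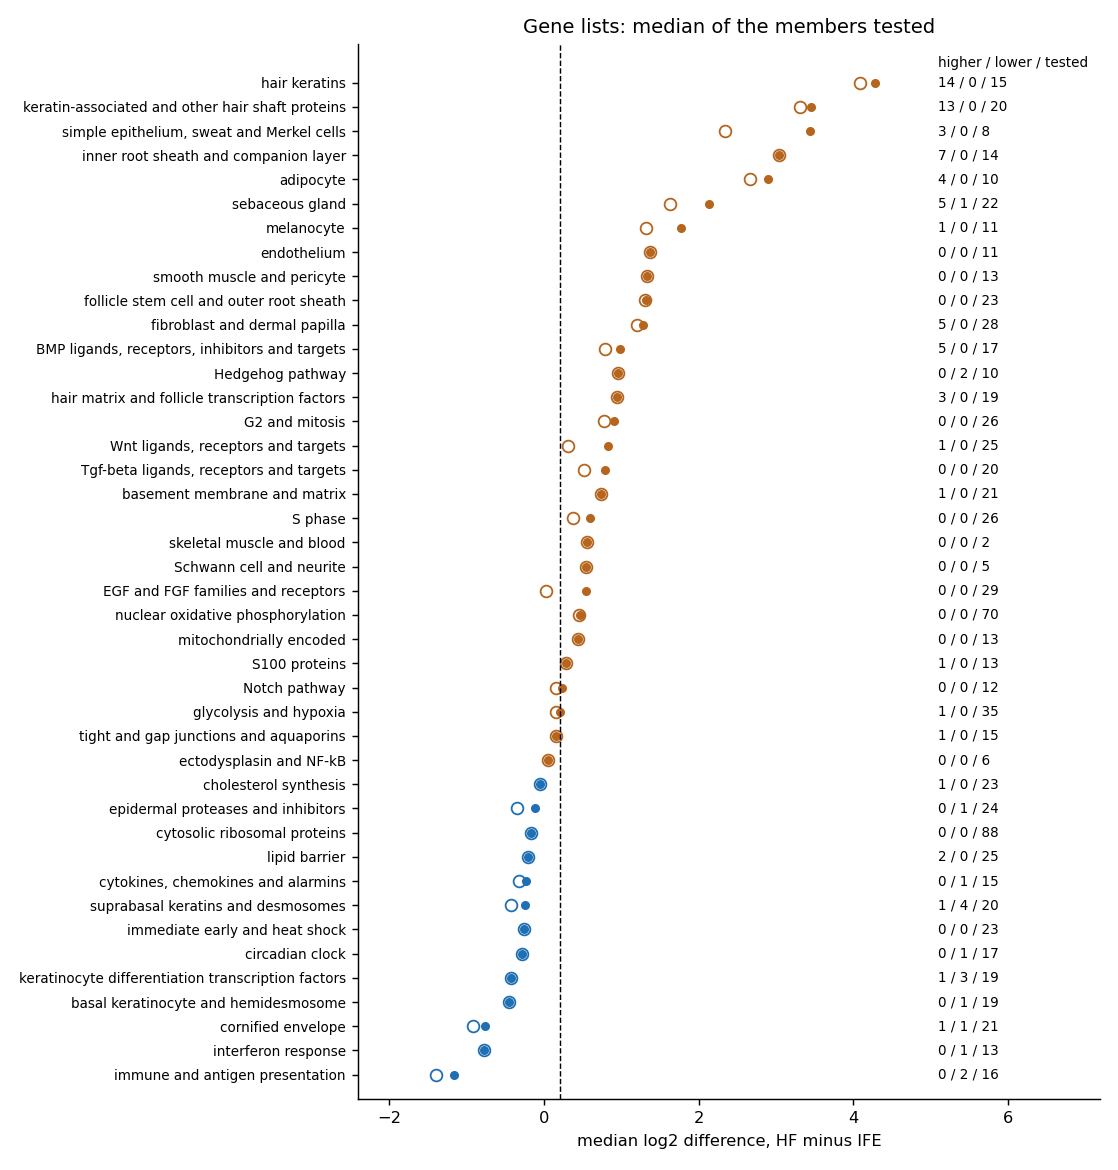
Median log2 difference (HF minus IFE) of the tested members of each of the 42 gene lists, with filled points as fitted and open points with genes at 0 in one group set at their lower bound; the dashed line is the median of all genes tested (0.21). The columns at the right give the members called higher, called lower and tested, and hair keratins lead with 14 of 15 called higher.

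Lists of growth, energy and protein synthesis genes gave few calls. None of 26 S phase genes, 26 G2 and mitosis genes, 70 nuclear genes of oxidative phosphorylation, 88 ribosomal protein genes, 13 mitochondrially encoded genes or 23 immediate early and heat shock genes was called by edgeR, in a comparison that called 2.78% of all genes. At an unadjusted p under 0.05 they numbered 1, 3, 13, 3, 2 and 1, DESeq2 called none, and voom called 1 mitotic gene. Both HF libraries stood above both IFE libraries in 61.4% of the oxidative phosphorylation genes, against 33.6% of all genes. The share was 53.8% in the mitotic list and in the mitochondrially encoded list, and 42.3% in S phase. It was 19.3% for ribosomal proteins and 17.4% for immediate early and heat shock genes. The tissue fit called 1 gene of these lists, KLF6, an early response factor, at 283 and 239 CPM in HF and 803 and 798 CPM in IFE (log2 difference -1.75, edgeR adjusted p = 0.00766). Mitotic genes were near the limit of detection: KIF2C, a mitotic kinesin, had 10.6 and 13.9 CPM in HF and no count in IFE, at least 1.69-fold higher, and MKI67 had 7 counts in the 4 libraries, all in HF. Of 35 glycolysis and hypoxia genes, LDHB, a lactate dehydrogenase subunit, was called higher in HF at 206 and 253 CPM against 68.1 and 31.3 CPM (log2 difference 2.07 ± 0.56, edgeR adjusted p = 0.047), and was lost without any 1 of the 4 libraries (adjusted p = 0.104 to 0.214). Of 23 cholesterol synthesis genes, INSIG1, a brake on that pathway, was called higher in HF at 52.9 and 44.3 CPM against 12.2 CPM in IFE1 and 0 in IFE2 (log2 difference 2.43 ± 0.58, edgeR adjusted p = 0.0237), and was lost without HF1, HF2 or IFE2 (adjusted p = 0.0679 to 0.0974).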

How the data were processed

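RNA was measured by CEL-seq2, which counts transcripts from their 3′ ends. Per the submitters' processing notes, BWA 0.6.2-r126 and the build CanFam3.1 were used. Neither the annotation nor the counting tool nor the treatment of molecular barcodes is given in the sources used here. The authors deposited an estimated count per gene and library, some with a fraction, which was rounded to a whole number here. Entries that name no gene (1.11 to 2.16% of counts in HF and IFE) were left out. Provisional names of 353 entries were replaced by current symbols from a reference table of another dog assembly, from which no coordinates were taken. Near-identical gene copies are uncertain.

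The analysis used edgeR 4.0.16 (R 4.3.3): its default filter on 12 groups, TMM scaling and a quasi-likelihood fit with a mean for each group over 23 libraries (11 residual degrees of freedom). Log2 differences are HF minus IFE ± SE, with Benjamini-Hochberg adjustment over all 9893 genes, and calls are genes whose adjusted p lay below 0.05. The p-values measure the spread between these libraries, which may be technical. Folds against a group without counts are lower bounds from a floor of 3 counts over the group. They do not include the counting error of the group that has counts. A gene with 1 to 3 counts in a group has a pooled ratio with an exact 95% counting interval. The fit to the 6 tissue libraries was listed as an alternative, as were other scalings, filters, DESeq2 1.42.0, voom in limma 3.58.1, and leaving out each library. Scripts were tested on simulated data.

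Named genes were the 4 markers, the 15 largest called differences each way among symbols with at least 20 CPM in the higher group and no overlap, up to 4 called genes per list and direction (2 in lists without a call) and a fixed set. A further 63 were chosen after their values were seen, among them KRT31, KRT34, KRTAP3-1, LOR's companions KRTDAP, CSTA, CALML5 and DMKN, SPINK5, GATA3, BMP7, HAL and IL36RN. The comparison, the 42 gene lists and the rule were chosen with earlier results of these data known. Whether same-numbered libraries pair was checked from their deviations from group means (r = 0.07 for HF with IFE, 0.29 for HF with whole skin, 0.06 for IFE with whole skin), and they were not treated as pairs. Sequences were not analysed here. Some results that the rule for named genes selects are not reported here.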

Additional observations from a re-analysis of the deposited data

How the results depend on the processing

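The number of genes called, 275, was 478 with no filter on low counts, 578 in the 6 tissue libraries, 463 in the 4 HF and IFE libraries, and 413 without the differentiation libraries. Leaving out 1 library gave 112 to 169, where the group left with 1 library is assumed to vary like the others. With a replicate block in the tissue libraries the count was 644; same-numbered libraries share no stated origin. Under the 7 other alternatives it stayed within 1.5 times, and mostly the same genes were called: 239 of the 275 with DESeq2's size factors, 216 with library totals and 252 with voom. Of 118 named genes called, all kept their direction in every alternative that tested them and 36 kept their call in each. Of 84 named but not called, 39 were called in tissue alone.

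Reversals concerned uncalled genes near 0. KRT5 (0.004) became -0.18 with size factors and with DESeq2, -0.43 with library totals, -0.11 with the stricter filter, -0.15 in tissue alone, -0.20 in the 4 libraries and -0.011 with fractional counts. With 1 library left out the range was -0.61 to 1.06 for KRT5, -1.15 to 0.0316 for KRT14, -0.71 to 0.45 for KRT15, -0.91 to 0.23 for TP63, -0.98 to 0.0372 for NFATC1, -0.17 to 0.84 for TNFRSF19 and -0.17 to 0.82 for CKM. The causes were not tested.

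Shares of keratin classes among all counts in place of keratin counts gave ratios of mean HF to mean IFE on the same side of 1, but in the basal class IFE1 then fell below both HF libraries. IFE2 sets the limit of detection: 67 of the 202 genes higher in HF had no count there, against 9 in IFE1.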

Other observations

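The following gene groups were put together after their values had been seen, so their counts support nothing beyond each gene's own test. Genes that handle cysteine and thiol groups stood higher in HF. CTH, which makes cysteine from cystathionine, read 96.5 and 143 CPM in HF and 14.6 CPM in IFE1, with no count in IFE2 (log2 difference 3.50 ± 0.66, edgeR adjusted p = 0.00412). CHAC1, which breaks down glutathione, read 366 and 426 CPM in HF and 68.1 CPM in IFE1, again with none in IFE2 (log2 difference 3.17 ± 0.64, edgeR adjusted p = 0.00661). The cysteine-rich metallothioneins MT1E and MT2A stood at 566 and 1222 CPM against 102 and 70.4 CPM (log2 difference 3.33 ± 0.77, edgeR adjusted p = 0.0192) and at 603 and 783 CPM against 146 and 133 CPM (log2 difference 2.30 ± 0.51, edgeR adjusted p = 0.015), and TXNRD1, a thioredoxin reductase, at 131 and 143 CPM against 36.5 and 31.3 CPM (log2 difference 1.98 ± 0.47, edgeR adjusted p = 0.0224). Hair shaft proteins are themselves rich in cysteine. CTH and CHAC1 were called without each library in turn, whereas MT1E was lost without HF2, IFE1 or IFE2 (adjusted p = 0.153 to 0.172), MT2A without HF2, IFE1 or IFE2 (adjusted p = 0.1 to 0.138) and TXNRD1 without any 1 of the 4 libraries (adjusted p = 0.0701 to 0.217).

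Genes of iron and copper transport were higher in HF too. HEPHL1, a copper ferroxidase that takes part in hair formation, stood at 246 and 275 CPM in HF and 19.5 and 7.83 CPM in IFE (log2 difference 4.01 ± 0.67, edgeR adjusted p = 0.0017). SLC40A1 (ferroportin), the iron exporter, stood at 112 and 145 CPM against 21.9 and 23.5 CPM (log2 difference 2.52 ± 0.50, edgeR adjusted p = 0.00627), and LTF (lactoferrin), an iron-binding secretion, at 109.7 and 118 CPM in HF, 12.2 CPM in IFE1 and 0 in IFE2 (log2 difference 3.67 ± 0.58, edgeR adjusted p = 0.00116). HEPHL1 and LTF were called without each library in turn; SLC40A1 was lost without HF2 or IFE1 (adjusted p = 0.0571 to 0.159). Retinoid genes shared the direction, with RBP4, the retinol carrier, at 499 and 444 CPM in HF and 60.8 and 23.5 CPM in IFE (log2 difference 3.31 ± 0.66, edgeR adjusted p = 0.00608, lost without IFE2 (adjusted p = 0.0796)) and ALDH1A1, a retinaldehyde dehydrogenase, at 54.2 and 174 CPM in HF, 12.2 CPM in IFE1 and 0 in IFE2 (log2 difference 3.69 ± 0.85, edgeR adjusted p = 0.0224, lost without HF2, IFE1 or IFE2 (adjusted p = 0.125 to 0.236)).

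In IFE, receptors for cytokines were higher in a further 3 cases. IFNLR1, the interferon lambda receptor chain, stood at 3.96 and 1.90 CPM in HF and 26.8 and 31.3 CPM in IFE (log2 difference -3.35 ± 0.82, edgeR adjusted p = 0.0281). IL20RB, a receptor chain for interleukins of the IL-20 family, stood at 18.5 and 19.6 CPM against 90.01 and 86.1 CPM (log2 difference -2.20 ± 0.45, edgeR adjusted p = 0.00796). CXCR2, a chemokine receptor, had no count in HF and 7 counts in IFE, at 12.2 and 15.7 CPM (edgeR adjusted p = 0.0387). Its IFE mean was 10.2-fold above the HF floor of 1.36 CPM, a figure that leaves out the counting error of those 7 counts. IFNLR1 was lost without any 1 of the 4 libraries (adjusted p = 0.0891 to 0.285), IL20RB without HF1, HF2 or IFE1 (adjusted p = 0.0672 to 0.11) and CXCR2 without any 1 of the 4 libraries (adjusted p = 0.11 to 0.267). KLF5, a factor of proliferating epithelium, read 75.3 and 82.95 CPM in HF and 246 and 250.5 CPM in IFE (log2 difference -1.64 ± 0.32, edgeR adjusted p = 0.0049) and was lost without HF1 or HF2 (adjusted p = 0.062 to 0.0665).

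The IFE libraries differed in how far below HF the called genes lay. Over the 202 genes called higher in HF, IFE1 stood at a median of 13.1% of the HF mean and IFE2 at 1.96%. For the 14 called hair keratins the medians were 7.79% and 0.965%. For the 114 genes called higher that carry a symbol and lie outside the hair keratin, hair shaft and inner root sheath lists, they were 15.98% and 5.91%. The source of this difference was not tested.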
